A study of Mus musculus with 6 samples.

Results

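Splenic CD11b+Gr-1high cells from IRF8 knockout (KO) mice were compared with those from wild-type (WT) mice on Illumina bead arrays of biotin-labelled cRNA, with 2 arrays per genotype. Both groups were tumor-free and of the H-2b background, and both went through the same sort, to above 97% purity per the labels, so the comparison is of the sorted fraction and not of the whole spleen. Another 2 arrays, of WT mice bearing a tumor of the AT-3 mammary carcinoma line, entered the normalization, the choice of probes fitted and the estimate of the spread, but neither mean of any difference between KO and WT. The design text says that the cells were sorted in 2 independent experiments, but the labels do not say which array came from which experiment, how many animals stand behind an array, or how and in which cells the Irf8 allele was inactivated. P-values therefore measure the spread between these arrays. Mean deposited signal was 407 and 421 on the KO arrays, against 397 and 379 on the WT arrays, and 38.4% and 34.9% of probes were detected on the KO arrays, against 32.6% and 32.9% on the WT arrays.

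The probes described are those with a detection p under 0.05 on at least 2 of these 4 arrays, which held for 16575 of 45281 probes and gave 9035 named genes. Levels are normalized log2 signals of the gene's brightest probe, and differences are KO minus WT on that scale with their standard error (SE) from limma. A gene is said to have risen or fallen when its Benjamini-Hochberg adjusted p, over all 17631 probes fitted, was under 0.05. By this rule 5517 probes (33.3%) differed, 2755 of them higher in KO cells (16.6%) and 2762 lower (16.7%). Of the named genes, 1561 rose (17.3%) and 1635 fell (18.1%), or 35.4% in either direction, and these shares are the background against which the counts of each gene list below are to be read. The median difference over all named genes was -0.02. With no scaling between arrays, 4466 probes were higher and 2197 lower, so that 67.0% of calls were higher instead of 49.9%, and the median difference of the probes was 0.26. When detected probes were given equal medians it was -0.12, and 42.5% of calls were higher. Without WT 1 the count of called probes was 2464 and without WT 2 it was 2111.

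IRF8 is a transcription factor of the interferon regulatory factor family. In mice it is known to direct myeloid progenitors towards monocytes, macrophages and dendritic cells and to restrain the granulocyte lineage, and it binds DNA with partners such as PU.1 at composite Ets-IRF elements, or with other IRF proteins at interferon-stimulated response elements. Neutrophils make their granule proteins in waves during maturation: proteases of the primary granules in promyelocytes, proteins of the secondary granules in myelocytes, and tertiary granule and surface proteins last, after division has ceased.

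The label of the cells was set against 12 measured neutrophil markers, and all 12 were detected on all 4 arrays. Their summed signal was 206063 and 224568 on the KO arrays, against 165024 and 168703 on the WT arrays. Of these markers 5 rose, 2 fell and 5 did not pass. Itgam, the CD11b chain used in the sort, rose, with 8.77 and 8.87 on the KO arrays, against 7.33 and 6.20 on the WT arrays (2.06, SE 0.36, adjusted p = 0.00512). Cd177, a neutrophil surface glycoprotein, rose, with 14.85 and 14.93 on the KO arrays, against 12.28 and 12.19 on the WT arrays (2.65, SE 0.21, adjusted p = 0.000355), whereas Csf3r, the receptor for granulocyte colony-stimulating factor, fell (-2.25, SE 0.40, adjusted p = 0.00556). The list's median was 0.19, and it turned to -0.21 when detected probes were given equal medians.

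The KO arrays differed more from each other than the WT arrays did. Over the 16575 probes, log2 levels correlated at 0.966 between KO 1 and KO 2 and at 0.988 between the WT arrays, and 1427 probes differed by more than 1 log2 unit between the KO arrays, against 240 between the WT arrays. KO 1 correlated with the WT arrays at 0.842 and 0.834, and KO 2 at 0.890 and 0.886. Probes share an array and are not independent, so these values carry no test. KO 1 lay farther from the WT mean than KO 2 for 1071 of the 1561 genes that rose and for 1185 of the 1635 that fell. All of these genes had KO and WT arrays that did not overlap, as had 36.1% of named genes with KO above WT and 36.2% with KO below, called or not. For many gene lists the median is also given on each KO array against the WT mean, and its absence does not mean that the KO arrays were alike. Without KO 1 the medians of 14 of the 30 lists shrank by more than 1.5 times, and without background correction those of 17 did. None of these turned in sign.

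**Figure D1:**
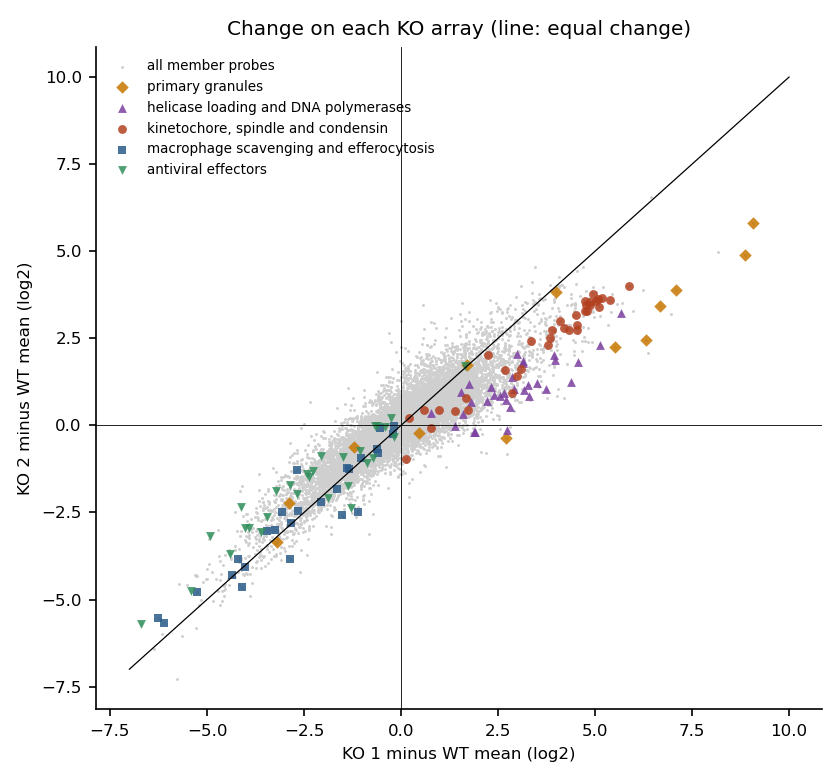
Each point is a probe: its log2 level on KO 1 (horizontal) and on KO 2 (vertical), each minus the WT mean. Coloured points are the measured genes of 5 lists and the diagonal marks equal change on both KO arrays; primary granule and DNA replication genes lie right of it, higher on KO 1, while macrophage genes lie near it.

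Irf8 itself was read by 1 probe. Its deposited signal was 127.1 and 156.7 on the KO arrays, against 221.6 and 192.3 on the WT arrays, and its level was 4.85 and 5.34 on the KO arrays, against 6.86 and 6.70 on the WT arrays. It fell by 1.69 (SE 0.31, adjusted p = 0.00607), and both KO arrays lay below both WT arrays. The probe was still detected on the KO arrays, at detection p-values of 0.02885 and 0.00107, and where it lies relative to the altered part of the allele is not given in the sources used here. Leaving out WT 1 ended the call (-1.60, adjusted p = 0.0506), as did omitting the background correction (-0.64, adjusted p = 0.0516). With the KO and WT arrays alone it fell by 1.84.

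Genes that receive and relay interferon signals were lower in KO cells. Of 16 measured genes for IRF proteins, interferon receptors and their kinases, 0 rose, 12 fell and 4 missed the threshold, with a median of -1.22. Irf7, an amplifier of type I interferon production, had 5.64 and 7.34 on the KO arrays, against 10.45 and 10.25 on the WT arrays (-3.86, SE 0.66, adjusted p = 0.00481). Irf5, which acts downstream of Toll-like receptors, had 5.79 and 6.62 on the KO arrays, against 9.91 and 9.66 on the WT arrays (-3.58, SE 0.30, adjusted p = 0.000428). The groups did not overlap for either gene, and KO 1 was the lower KO array for both. Ifngr2, a chain of the interferon gamma receptor, fell by 1.92 (SE 0.23, adjusted p = 0.0013), and all 3 of its probes fell. Without WT 1, 4 genes of the list fell, and without WT 2, 5 did.

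The sensors of foreign nucleic acids moved less uniformly: of 17 measured, 0 rose, 7 fell and 10 missed the threshold. The median was -0.90, with -1.19 on KO 1 and -0.38 on KO 2, and it was -0.39 without KO 1 and -0.52 without background correction. Among those that fell were Tlr13, an endosomal receptor for bacterial ribosomal RNA in the mouse (-2.38, SE 0.48, adjusted p = 0.00902), Trim25, a ubiquitin ligase of the RIG-I pathway (-1.95, SE 0.37, adjusted p = 0.00686), and Ifi205, a member of the p200 family. Ifi205 was detected on neither KO array and was at least 2.54-fold lower (adjusted p = 0.00314). Such a bound sets the brighter group's mean against, on each array of the dimmer group, the higher of the probe's own level and the lowest level of a detected probe. Tlr13 lost its call without either WT array and Trim25 without WT 2, and without WT 2 the list had 4 falls.

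Antiviral effector genes, which interferon induces, fell in their majority: of 29 measured, 1 rose, 20 fell and 8 missed the threshold. The median was -1.91, with -2.26 on KO 1 and -1.71 on KO 2. Ifit3, a binder of viral RNA complexes, had 6.03 and 7.02 on the KO arrays, against 12.57 and 12.90 on the WT arrays, a 74.1-fold lower level (-6.21, SE 0.61, adjusted p = 0.000642). Oasl1, which lacks the synthetase activity of its family, had 5.16 and 5.81 on the KO arrays, against 10.57 and 10.58 on the WT arrays (-5.09, SE 0.71, adjusted p = 0.00216). The WT arrays stood far above the KO arrays for both genes, and both probes of each gene fell. The other probe of Ifit3 fell by much less (-2.44), while that of Oasl1 fell by as much (-5.17). The exception was Ifitm6, a member of the interferon-induced transmembrane family, with 13.15 and 13.20 on the KO arrays, against 11.25 and 11.74 on the WT arrays (1.68, SE 0.24, adjusted p = 0.00248). Falls numbered 13 without KO 1, 12 without WT 1 and 10 without WT 2, and the call of Oasl2 (-4.05, adjusted p = 0.00919) was among those lost without KO 1 and without either WT array.

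All 8 measured interferon-induced GTPases, which act on the membranes of vacuoles that hold pathogens, fell, with a median of -2.48. Gbp2 had 7.89 and 8.16 on the KO arrays, against 12.10 and 11.94 on the WT arrays (-4.00, SE 0.62, adjusted p = 0.00327). Gbp3 had 5.59 and 5.30 on the KO arrays, against 8.54 and 8.55 on the WT arrays (-3.10, SE 0.56, adjusted p = 0.00575). Irgm2 had 8.53 and 8.45 on the KO arrays, against 11.61 and 11.51 on the WT arrays (-3.07, SE 0.39, adjusted p = 0.0016). The KO arrays lay close together and well below the WT arrays in each case.

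The promoters of these genes were searched for the interferon-stimulated response element, taken as GAAA, any 2 bases and GAAA, and read on both strands, in the RefSeq windows from 250 bases before to 50 after the start on GRCm38.p6. The 3 promoters printed are those of the genes with the largest falls among the antiviral and GTPase genes that hold the element. Rsad2, the antiviral enzyme viperin, is among them and was added after its values were seen (7.78 and 9.51 on the KO arrays, 12.67 and 12.72 on the WT arrays). Capitals mark the element, which lies on the opposite strand in all 3 and so reads as TTTC, 2 bases and TTTC.

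Ifit3, chr19:34583279-34583578, plus strand: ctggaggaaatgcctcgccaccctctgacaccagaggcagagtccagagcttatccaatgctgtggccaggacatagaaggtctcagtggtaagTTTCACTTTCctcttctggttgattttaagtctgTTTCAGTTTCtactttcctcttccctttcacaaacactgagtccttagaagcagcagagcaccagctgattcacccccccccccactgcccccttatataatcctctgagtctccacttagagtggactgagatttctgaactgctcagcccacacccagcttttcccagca

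Rsad2, chr12:26456403-26456702, minus strand: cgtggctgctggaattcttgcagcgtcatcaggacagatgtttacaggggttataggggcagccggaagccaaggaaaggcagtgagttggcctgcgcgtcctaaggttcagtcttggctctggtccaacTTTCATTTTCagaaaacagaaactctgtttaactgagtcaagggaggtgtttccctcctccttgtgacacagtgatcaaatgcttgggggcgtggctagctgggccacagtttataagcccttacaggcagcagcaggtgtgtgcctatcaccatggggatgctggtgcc

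Gbp2, chr3:142620413-142620712, plus strand: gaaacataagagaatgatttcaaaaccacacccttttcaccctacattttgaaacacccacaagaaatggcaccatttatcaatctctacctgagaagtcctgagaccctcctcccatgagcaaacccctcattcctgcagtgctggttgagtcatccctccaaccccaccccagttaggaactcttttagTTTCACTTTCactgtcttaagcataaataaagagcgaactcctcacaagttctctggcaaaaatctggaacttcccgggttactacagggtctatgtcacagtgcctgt

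Ifit3 held the element at 2 places, starting at positions -156 and -122 relative to the start, Rsad2 held it at -120 and Gbp2 at -59. Of the 28 antiviral and GTPase genes that fell, 21 had a promoter in the table and 12 of these (57.14%) held the element. Among all 27025 promoters of the same length 1079 (3.993%) held it. It was present in 90 of 1348 promoters of genes that fell (6.677%), in 16 of 130 of those that fell by at least 8-fold (12.31%), in 31 of 1301 of those that rose (2.383%) and in 169 of 4762 of those that did not pass (3.549%). The Ets-IRF composite element, taken as GGAA, any 2 bases and GAAA, was in 3.932% of promoters of genes that fell and 2.921% of those that rose, against 3.156% of all promoters, and in 4 of the 21. The reverse arrangement, the IRF-Ets composite sequence of GAAA, any 2 bases and GGAA, was in 3.561% of promoters of genes that fell and 2.921% of those that rose, against 3.179% of all. The patterns overlap in their letters, and 88 promoters held both the response element and the Ets-IRF element. The antiviral and GTPase lists were drawn up as genes that interferon induces, and the share among their members that did not fall was not computed. The 57.14% therefore cannot be tied to the fall in KO cells. Oasl1 and Oasl2, which fell as well, had a promoter in the table without the element. A match describes the letters and not a bound site.

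**Figure D2:**
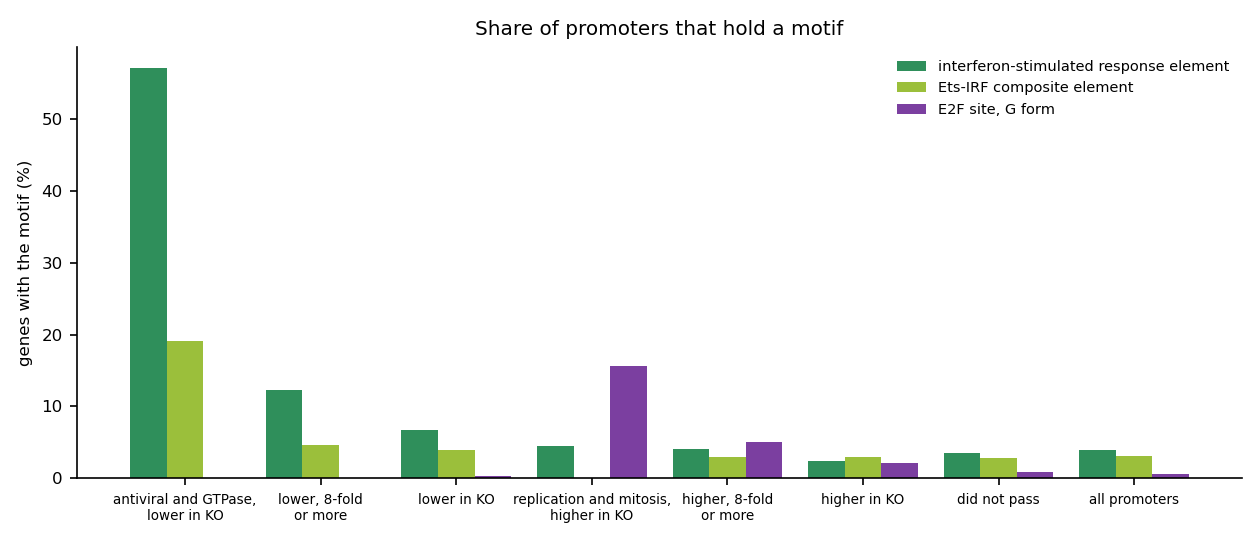
Bars give the percentage of promoters that hold each of 3 motifs, for groups of genes by their change in KO cells and for all promoters of the table. The interferon-stimulated response element stands at 57.14% in the antiviral and GTPase genes that fell, against 3.993% of all promoters, and the E2F site at 15.56% in replication and mitosis genes that rose, against 0.5846% of all promoters. These shares rest on 12 of 21 and 7 of 45 promoters. Shares among listed genes without the change were not computed, so neither share can be tied to the change in KO cells.

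Genes of macrophages were lower in KO cells. Of 26 measured genes of scavenging and dead-cell uptake, 0 rose, 22 fell and 4 missed the threshold, with a median of -2.34. C1qb, a chain of complement C1q, had 4.61 and 5.33 on the KO arrays, against 10.94 and 10.79 on the WT arrays (-5.90, SE 0.28, adjusted p = 0.000184). Axl, a receptor that recognises dying cells through bridging ligands, had 5.55 and 6.04 on the KO arrays, against 10.95 and 10.69 on the WT arrays (-5.02, SE 0.25, adjusted p = 0.000184). Apoe, a lipid carrier that macrophages secrete, had 6.07 and 5.51 on the KO arrays, against 10.49 and 9.81 on the WT arrays (-4.37, SE 0.55, adjusted p = 0.00153). The KO arrays were far below the WT arrays for all 3 genes. C1qb was detected on 1 of the 2 KO arrays, as was C1qc, which fell by 5.88 (SE 0.27), so these differences rest partly on a level not above background. Of the same complex, C1qa was detected on neither KO array and was at least 12.2-fold lower. Of the 26 genes, 12 were not detected on both KO arrays. The list's median was -2.43 without KO 1 and -2.63 without KO 2. In a sorted population, fewer cells of a type and less RNA per cell cannot be told apart.

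**Figure D3:**
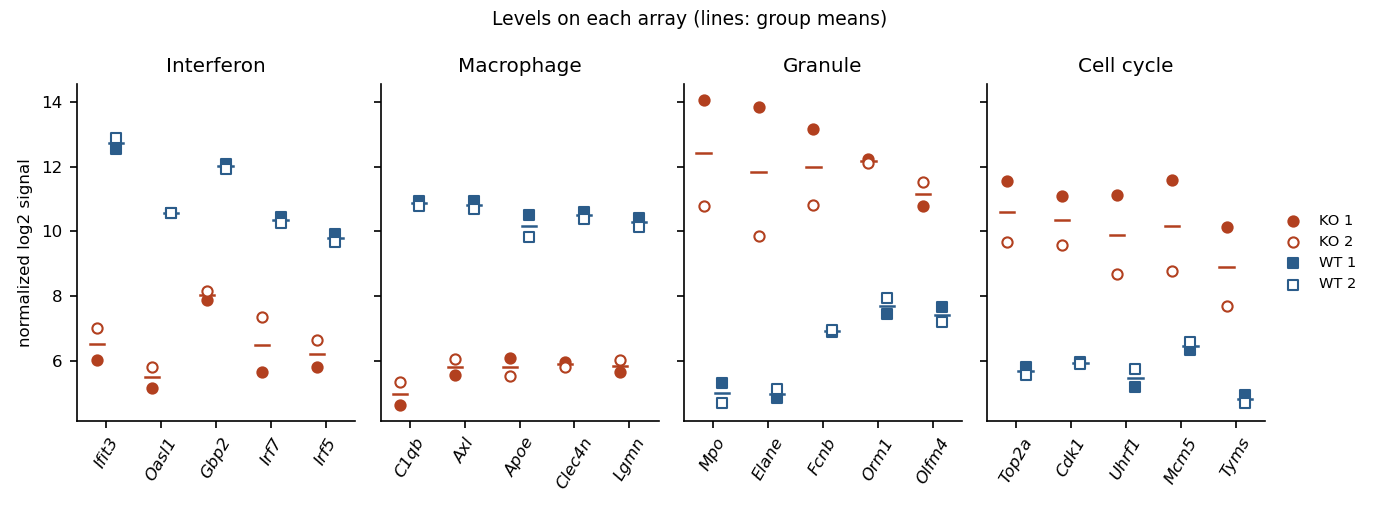
Normalized log2 signal of 20 named genes on each array, in 4 panels, with circles for KO and squares for WT, filled for array 1 and open for array 2, and bars at the group means. Interferon and macrophage genes lie lower on both KO arrays than on both WT arrays, granule and cell cycle genes lie higher, and Mpo, Elane and Mcm5 lie far higher on KO 1 than on KO 2.

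Transcription factors of monocytes and macrophages fell as well: of 20 measured, 0 rose, 14 fell and 6 missed the threshold, with a median of -1.90 that was -2.25 on KO 1 and -1.43 on KO 2. Spic, needed for splenic red pulp macrophages in the mouse, had 4.42 and 5.16 on the KO arrays, against 8.78 and 8.87 on the WT arrays (-4.04, SE 0.28, adjusted p = 0.000315), and it was detected on 1 of the 2 KO arrays. Nr1h3, the oxysterol receptor LXR alpha, had 4.91 and 4.89 on the KO arrays, against 8.27 and 8.14 on the WT arrays (-3.30, SE 0.25, adjusted p = 0.00032). Atf3, a stress-induced repressor, had 6.13 and 7.6 on the KO arrays, against 9.69 and 10.57 on the WT arrays (-3.27, SE 0.49, adjusted p = 0.00281). Klf4, known to promote monocyte differentiation, fell by 1.87, but its KO arrays were 1.96 apart and its call was lost without KO 1 (-0.90), without either WT array and without either AT-3 array. Without WT 1 the list had 9 falls.

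Factors of the granulocyte lineage and of progenitors were split: of 16 measured, 5 rose and 5 fell, with a median of 0.30 that was 0.43 on KO 1 and 0.19 on KO 2. Gfi1, a repressor required for neutrophil formation, had 10.27 and 9.09 on the KO arrays, against 5.93 and 6.5 on the WT arrays (3.46, SE 0.47, adjusted p = 0.00203). Cebpe, which drives secondary granule genes, had 13.51 and 13.60 on the KO arrays, against 10.45 and 10.30 on the WT arrays (3.18, SE 0.28, adjusted p = 0.000482), and all 4 of its probes rose. Ets1, a factor better known from lymphocytes, had 11.93 and 11.95 on the KO arrays, against 9.34 and 9.52 on the WT arrays (2.51, SE 0.21, adjusted p = 0.000428). These KO arrays were above both WT arrays, and for Cebpe and Ets1 they nearly coincided. The falls included Spi1, which encodes PU.1 (-1.60, SE 0.32, adjusted p = 0.00912), Cebpd, a C/EBP factor of inflammation (-1.35, SE 0.25, adjusted p = 0.00659), and Tal1, a factor of early hematopoiesis detected on 1 of the 2 KO arrays (-1.21, SE 0.25, adjusted p = 0.00982). The other probe of Cebpd differed by 0.21 and did not pass, and averaging its probes ended its call. Of these calls, that of Spi1 was lost without WT 1, that of Cebpd without WT 2 and that of Tal1 without either, and 1 gene of the list fell without WT 1 and 1 without WT 2.

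Receptors that myeloid cells use to recognise antibodies and glycans were mostly lower. Of 21 measured Fc receptors and C-type lectins, 1 rose, 12 fell and 8 missed the threshold, with a median of -0.96 that was -1.56 on KO 1 and -0.81 on KO 2. Clec4a3, an inhibitory lectin, had 5.59 and 5.39 on the KO arrays, against 10.47 and 10.42 on the WT arrays (-4.95, SE 0.24, adjusted p = 0.000184). Clec4a1 had 5.07 and 5.05 on the KO arrays, against 9.91 and 9.67 on the WT arrays (-4.73, SE 0.24, adjusted p = 0.000191). Clec4n, which encodes dectin-2, a receptor for fungal mannans, had 5.96 and 5.80 on the KO arrays, against 10.60 and 10.38 on the WT arrays (-4.61, SE 0.34, adjusted p = 0.00032). For each of these lectins the arrays of a genotype lay close together and the genotypes far apart. The gene that rose was Fcgr2b, the inhibitory Fc gamma receptor, with 10.50 and 10.51 on the KO arrays, against 9.30 and 9.33 on the WT arrays (1.19, SE 0.20, adjusted p = 0.00497), and its call was lost without WT 2.

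In the Toll-like receptor pathway, of 17 measured genes 1 rose and 5 fell. The median was -0.54, with -1.0 on KO 1 and -0.20 on KO 2, and it was -0.20 without KO 1 and -1.01 without KO 2. Tlr6, a partner of Tlr2 for lipopeptides, had 7.85 and 8.72 on the KO arrays, against 11.05 and 11.09 on the WT arrays (-2.78, SE 0.37, adjusted p = 0.00181). Tlr4, the receptor for lipopolysaccharide, fell by 2.30 (SE 0.24, adjusted p = 0.000756), and Ly96, its co-receptor MD-2, by 2.40 (SE 0.42, adjusted p = 0.00549). Lbp, the soluble protein that carries lipopolysaccharide to that receptor, went the other way, with 10.65 and 10.73 on the KO arrays, against 6.90 and 7.29 on the WT arrays (3.59, SE 0.23, adjusted p = 0.000296). Its KO arrays were more than 3 log2 units above both WT arrays. Without WT 1 or WT 2, 3 genes fell in either case.

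Of 22 measured integrins and adhesion molecules, 1 rose, 13 fell and 8 missed the threshold, with a median of -0.97. Of these genes 6 were not detected on both KO arrays and 2 not on both WT arrays. Itgad, the alpha chain of CD11d that red pulp macrophages carry, was detected on neither KO array (4.53 and 4.68) and had 9.75 and 9.63 on the WT arrays, at least 28.9-fold lower (adjusted p = 0.000184). Itgb7, a beta chain of gut-homing integrins, had 6.48 and 7.17 on the KO arrays, against 10.35 and 10.46 on the WT arrays (-3.58, SE 0.27, adjusted p = 0.000337). Jaml, a junctional adhesion molecule of granulocytes and monocytes, had 8.55 and 8.88 on the KO arrays, against 12.02 and 12.06 on the WT arrays (-3.33, SE 0.28, adjusted p = 0.000428). The only rise in the list was that of Itgam, whose values stand above with the check of the sort.

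Lysosomal genes fell in part. Of 27 measured hydrolases and proton pump subunits, 1 rose, 10 fell and 16 missed the threshold, with a median of -0.62. Lgmn, an asparaginyl endopeptidase of antigen-presenting cells, had 5.63 and 6.0 on the KO arrays, against 10.43 and 10.13 on the WT arrays (-4.46, SE 0.24, adjusted p = 0.000247). Lipa, the lysosomal acid lipase, fell by 2.36 (SE 0.30, adjusted p = 0.00161) and Fuca1, a fucosidase, by 2.14 (SE 0.25, adjusted p = 0.00114). Glb1, the lysosomal beta-galactosidase, rose by 0.94 (SE 0.22, adjusted p = 0.0146), a call lost without either WT array, and without WT 2 the list had 6 falls.

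Of 26 measured autophagy genes, 2 rose, 9 fell and 15 missed the threshold, with a median of -0.44. Vmp1, which acts in the formation of the isolation membrane, had 8.34 and 8.07 on the KO arrays, against 10.88 and 10.95 on the WT arrays (-2.70, SE 0.31, adjusted p = 0.00111), although of its 5 probes 4 fell and 1 rose. Ulk1, the kinase that starts autophagy, had 8.07 and 9.36 on the KO arrays, against 11.04 and 11.25 on the WT arrays (-2.43, SE 0.43, adjusted p = 0.00546). Wipi1, a phosphoinositide-binding protein of the early autophagosome, had 10.24 and 10.42 on the KO arrays, against 7.68 and 7.81 on the WT arrays (2.59, SE 0.36, adjusted p = 0.00209), and all 3 of its probes rose. The groups were separate for each gene, with Ulk1 the widest apart within KO. Falls numbered 4 without KO 1 and 2 without either WT array, 1 gene rose without WT 2, where Map1lc3a (1.39) lost its call, and Calcoco1, a selective autophagy receptor that fell by 1.85 (adjusted p = 0.0151), was among the falls lost in each case.

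Genes of cholesterol export and of cholesterol synthesis were mixed, with medians of opposite sign. Of 10 measured genes of efflux and lipid handling, 1 rose and 6 fell, with a median of -0.84. Both KO arrays lay below both WT arrays for 6 of the 10 and above them for 4, against 36.2% and 36.1% of all named genes. The summed signal of the 10 was 4036 and 4051 on the KO arrays, against 4964 and 4385 on the WT arrays. Besides Apoe, Abcg1, a sterol exporter, had 6.34 and 7.01 on the KO arrays, against 9.81 and 10.15 on the WT arrays (-3.30, SE 0.31, adjusted p = 0.000574), and Lpl, lipoprotein lipase, fell by 2.77 (SE 0.27, adjusted p = 0.000631). Nceh1, a hydrolase of cholesterol esters, rose by 1.66 (SE 0.23, adjusted p = 0.00205). Of 14 genes of synthesis and uptake, 4 rose and 1 fell, with a median of 0.57 that was 0.29 on KO 1 and 0.89 on KO 2. Both KO arrays lay above both WT arrays for 8 of these and below them for 1. Fdps, which makes farnesyl diphosphate, had 10.32 and 9.72 on the KO arrays, against 7.67 and 7.86 on the WT arrays (2.25, SE 0.26, adjusted p = 0.00112), while Sc5d, a late sterol desaturase, fell by 1.39 (SE 0.22, adjusted p = 0.00342). Without either WT array, 3 genes of efflux fell and 2 of synthesis rose, and without KO 2, 2 of synthesis fell.

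Among 26 measured immediate early and NF-kappaB genes, 0 rose, 13 fell and 13 missed the threshold, with a median of -0.85. Junb, a subunit of the AP-1 factor, had 11.74 and 12.84 on the KO arrays, against 14.82 and 14.94 on the WT arrays (-2.59, SE 0.40, adjusted p = 0.00328). Dusp5, a phosphatase of the ERK kinases, had 5.92 and 7.48 on the KO arrays, against 9.28 and 9.43 on the WT arrays (-2.65, SE 0.61, adjusted p = 0.0151). KO 1 was the lower KO array for both, and it was lower than KO 2 for 25 of the 26 genes. The median was -1.27 on KO 1 and -0.55 on KO 2, each against the WT mean. Without KO 1, 3 genes rose and 6 fell, without WT 1 6 fell and without WT 2 4 did, and Dusp5 lost its call in all 3 cases.

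Of 23 measured apoptosis genes, 1 rose, 11 fell and 11 missed the threshold, with a median of -0.83, and both protectors and promoters of cell death were among those that fell. Bcl2a1d, a copy of the survival protein A1, had 6.82 and 6.87 on the KO arrays, against 9.94 and 10.03 on the WT arrays (-3.14, SE 0.23, adjusted p = 0.00032), and Bcl2a1b, another copy, fell by 2.93 (SE 0.26, adjusted p = 0.000472). These copies are near-identical, so their probes may read each other's transcripts. Bcl2l11, which encodes the pro-apoptotic protein Bim, had 7.35 and 7.08 on the KO arrays, against 9.83 and 9.76 on the WT arrays (-2.57, SE 0.28, adjusted p = 0.000922). Bcl2l2, which encodes the survival protein Bcl-w, had 8.4 and 7.56 on the KO arrays, against 5.40 and 5.57 on the WT arrays (2.50, SE 0.32, adjusted p = 0.00165), with 2 of its 4 probes called higher. Its other probes differed by -0.54 and -0.55 and did not pass. No group overlapped, and 7 genes fell without WT 1 and 7 without WT 2.

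Eicosanoid genes were mixed: of 16 measured, 3 rose and 8 fell, with a median of -0.57. Of these genes 6 were not detected on both KO arrays and 3 not on both WT arrays. Pla2g7, which degrades platelet-activating factor, had 6.62 and 6.13 on the KO arrays, against 10.26 and 10.17 on the WT arrays (-3.84, SE 0.27, adjusted p = 0.000315). Hpgd, which inactivates prostaglandins, was detected on neither KO array and was at least 10.4-fold lower (adjusted p = 0.00032). Ltb4r1, the receptor for the neutrophil attractant leukotriene B4, had 13.43 and 13.93 on the KO arrays, against 11.40 and 11.20 on the WT arrays (2.38, SE 0.27, adjusted p = 0.000996), and Ptges, which makes prostaglandin E2, was at least 2.65-fold higher (adjusted p = 0.00449). Thus the degrading enzymes Pla2g7 and Hpgd stood with the falls and the receptor Ltb4r1 with the rises. Without WT 1, 3 genes fell, and without WT 2, 4 did.

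Primary granule genes were split: 8 of the 13 measured rose, 2 fell and 3 missed the threshold, with a median of 3.88 that was 4.01 on KO 1 and 2.24 on KO 2. The summed signal of the 13 was 72410.5 on KO 1 and 30275.2 on KO 2, against 31323.5 and 32437.1 on the WT arrays. In sum, KO 2 thus did not exceed the WT arrays. Of these genes 5 were not detected on both WT arrays and entered through the KO arrays. Of the 8 detected at p under 0.01 on all 4 arrays, 3 rose and 2 fell, with a median of 0.65, and without background correction 6 of the 13 rose, with a median of 2.18. Mpo, myeloperoxidase, had 14.08 and 10.80 on the KO arrays, against 5.32 and 4.68 on the WT arrays (7.44, SE 0.92, adjusted p = 0.00138), and all 4 of its probes rose. Elane, neutrophil elastase, had 13.84 and 9.86 on the KO arrays, against 4.83 and 5.12 on the WT arrays (6.88, SE 1.06, adjusted p = 0.00328). Ctsg, the granule protease cathepsin G, had 11.56 and 8.36 on the KO arrays and was detected on neither WT array, at least 32-fold higher (adjusted p = 0.00374). Mpo and Elane were each detected on 1 of the 2 WT arrays, so their differences rest partly on a level not above background. Every KO array lay above both WT arrays, but KO 1 stood more than 3 log2 units above KO 2 for each of the 3 genes. Ms4a3, a marker of granulocyte and monocyte progenitors in the mouse, was likewise at least 28.8-fold higher (adjusted p = 0.00486). Mpo rose by 5.78 without KO 1 and 9.08 without KO 2, Ctsg by 3.76 and 7.02. The calls of Prtn3, proteinase 3 (4.39, adjusted p = 0.016), and Nkg7, a granule membrane protein of cytotoxic cells detected on 1 of the 2 WT arrays (3.88, adjusted p = 0.0136), were lost without either WT array.

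The falls among primary granule genes were in Ctsc, whose product cathepsin C processes the serine proteases into active form, and Srgn, the proteoglycan that packs them. Ctsc had 6.89 and 6.75 on the KO arrays, against 10.16 and 10.04 on the WT arrays (-3.28, SE 0.24, adjusted p = 0.00032). Srgn had 8.88 and 9.54 on the KO arrays, against 11.75 and 11.79 on the WT arrays (-2.56, SE 0.45, adjusted p = 0.00536). Neither gene's groups overlapped, and all probes of both genes fell. The proteases and the enzyme that activates them thus differed in opposite directions.

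Secondary granule genes rose without exception among those called: 13 of 22 measured passed, all upward, with a median of 1.30 that was 1.31 on KO 1 and 1.64 on KO 2. Fcnb, ficolin B, had 13.17 and 10.81 on the KO arrays, against 6.89 and 6.94 on the WT arrays (5.07, SE 0.64, adjusted p = 0.00151). Orm1, orosomucoid, had 12.23 and 12.11 on the KO arrays, against 7.43 and 7.95 on the WT arrays (4.48, SE 0.59, adjusted p = 0.00178). Olfm4, a matrix glycoprotein of a neutrophil subset, had 10.79 and 11.52 on the KO arrays, against 7.64 and 7.18 on the WT arrays (3.75, SE 0.36, adjusted p = 0.000619). Fcnb was higher on KO 1 and Olfm4 on KO 2, and no group overlapped. Ltf, lactoferrin, an abundant protein of these granules, did not pass by its brightest probe, which had 14.63 and 14.65 on the KO arrays, against 14.51 and 14.68 on the WT arrays. It was named after its values were seen, and its other probe was called higher.

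Genes of late neutrophil maturation went mostly down. Of 27 measured surface and tertiary granule genes, 3 rose, 15 fell and 9 missed the threshold, with a median of -1.12 that was -1.35 on KO 1 and -0.60 on KO 2. Wfdc17, a WAP-domain protein, had 6.25 and 4.74 on the KO arrays, against 11.93 and 12.11 on the WT arrays (-6.53, SE 0.56, adjusted p = 0.000428). Cxcr1, a receptor for neutrophil-attracting chemokines, had 5.04 and 4.62 on the KO arrays, against 10.68 and 10.66 on the WT arrays (-5.84, SE 1.08, adjusted p = 0.00637). Cxcr2, its close relative that draws mature neutrophils from marrow, had 10.35 and 10.97 on the KO arrays, against 12.72 and 12.71 on the WT arrays (-2.06, SE 0.33, adjusted p = 0.00383). Stfa2l1, a stefin A inhibitor of cysteine proteases whose family holds near-identical copies, fell by 3.50 (SE 0.25, adjusted p = 0.00032). Each of these had KO arrays below both WT arrays, and Wfdc17 and Cxcr1 were each detected on 1 of the 2 KO arrays. Wfdc21 rose by 2.04 (SE 0.29, adjusted p = 0.00242), and the smaller rises of Fpr2, a formyl peptide receptor, and Mmp25, a membrane metalloprotease, were lost without KO 2 (0.74 and 0.59) and without either WT array, and that of Mmp25 also without either AT-3 array. Without WT 1 or WT 2, 8 genes fell in either case.

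Cell cycle genes rose in KO cells. Of 36 measured genes of the kinetochore, spindle and condensin, 29 rose, 0 fell and 7 missed the threshold, with a median of 3.52 that was 4.15 on KO 1 and 2.74 on KO 2. Top2a, the topoisomerase that separates sister chromatids, had 11.56 and 9.67 on the KO arrays, against 5.80 and 5.55 on the WT arrays (4.94, SE 0.53, adjusted p = 0.000898). Nusap1, a spindle protein, had 11.09 and 9.31 on the KO arrays, against 5.63 and 5.80 on the WT arrays (4.48, SE 0.53, adjusted p = 0.00119). Cdk1, the kinase of mitotic entry, had 11.11 and 9.59 on the KO arrays, against 5.95 and 5.90 on the WT arrays (4.42, SE 0.44, adjusted p = 0.000685). Birc5 (survivin) and Cdca8 (borealin), subunits of the chromosomal passenger complex, rose by 4.35 (SE 0.43) and 4.21 (SE 0.40), and all probes of both genes rose. Of the 36 genes, 12 were not detected on both WT arrays, and of the 20 detected at p under 0.01 on all 4 arrays 18 rose. KO 1 was the higher KO array for 35 of the 36 genes. Both KO arrays lay above both WT arrays for 33 of the 36, against 36.1% of all named genes.

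Of 32 measured genes of helicase loading and DNA synthesis, 23 rose, 0 fell and 9 missed the threshold, with a median of 1.89. Of the 32, 8 were not detected on both WT arrays and were measured at least partly through the KO arrays, which favours rises. Here the KO arrays were farther apart: the median was 2.84 on KO 1 and 1.03 on KO 2, and KO 1 was higher for all 32. Uhrf1, which carries DNA methylation marks through replication, had 11.11 and 8.67 on the KO arrays, against 5.17 and 5.74 on the WT arrays (4.44, SE 0.69, adjusted p = 0.00334). Mcm5, a subunit of the replicative helicase, had 11.58 and 8.76 on the KO arrays, against 6.31 and 6.57 on the WT arrays (3.73, SE 0.77, adjusted p = 0.00999). Lig1, the ligase that joins Okazaki fragments, had 9.88 and 7.14 on the KO arrays, against 5.54 and 5.08 on the WT arrays (3.20, SE 0.75, adjusted p = 0.0163). Its other probe differed by 0.01 and did not pass. For the brightest probe of each gene, the KO arrays exceeded the WT arrays and KO 1 stood more than 2 log2 units above KO 2. The count of rises was 17 without KO 1, 31 without KO 2, 5 without WT 1 and 6 without WT 2, and Mcm5 and Lig1 lost their calls without either WT array. Without background correction 11 genes rose.

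Of 23 measured genes of nucleotide and one-carbon synthesis, 11 rose, 2 fell and 10 missed the threshold, with a median of 1.16 that was 1.81 on KO 1 and 0.55 on KO 2. Here too 8 genes were not detected on both WT arrays and entered through the KO arrays, which favours rises. Tyms, which makes thymidylate, had 10.14 and 7.68 on the KO arrays and was detected on neither WT array, at least 15.4-fold higher (adjusted p = 0.00408). Tk1, thymidine kinase, had 10.53 and 8.0 on the KO arrays, against 5.55 and 5.66 on the WT arrays (3.66, SE 0.69, adjusted p = 0.007). Adss, an enzyme of AMP synthesis, had 8.70 and 9.31 on the KO arrays, against 6.20 and 5.74 on the WT arrays (3.03, SE 0.29, adjusted p = 0.000609), and alone of these was higher on KO 2. Dck, the deoxycytidine kinase of the salvage pathway, went the other way, with 6.49 and 6.06 on the KO arrays, against 8.97 and 9.03 on the WT arrays (-2.73, SE 0.41, adjusted p = 0.00291). Rises numbered 7 without KO 1, 6 without WT 1 and 5 without WT 2, and the fall of Dctpp1, a nucleotide pyrophosphatase (-1.76, adjusted p = 0.0175), was lost without either WT array.

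Genes that govern entry into the cycle did not move as a block: of 24 measured, 8 rose, 4 fell and 12 missed the threshold, with a median of 0.58 that was 0.67 on KO 1 and 0.35 on KO 2. Cdc25a, a phosphatase that activates cyclin-dependent kinases, had 10.01 and 8.71 on the KO arrays, against 5.95 and 6.26 on the WT arrays (3.26, SE 0.41, adjusted p = 0.00152). Its other probe differed by -0.41 and did not pass. Cdk2, the S phase kinase, had 12.18 and 11.63 on the KO arrays, against 9.23 and 9.46 on the WT arrays (2.56, SE 0.26, adjusted p = 0.000716), and all 4 of its probes rose. Cdkn2c, an inhibitor of the G1 kinases, rose too (2.66, SE 0.41, adjusted p = 0.0032). Ccnd2, a G1 cyclin, had 5.03 and 5.01 on the KO arrays, against 8.57 and 8.37 on the WT arrays (-3.46, SE 0.22, adjusted p = 0.000296), and Ccnd1 fell by 2.25 (SE 0.30, adjusted p = 0.00183). The D cyclins that fell and the kinases that rose had non-overlapping groups, and without either WT array 5 genes rose and 2 fell.

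Of 16 measured DNA repair genes, 7 rose, 0 fell and 9 missed the threshold, with a median of 1.09 that was 1.85 on KO 1 and 0.70 on KO 2. Of these genes 8 were not detected on both WT arrays. Their place in the list rested at least partly on the KO arrays, which favours rises. Rad54b, a motor of recombination repair, had 9.39 and 7.20 on the KO arrays and was detected on neither WT array, at least 10.1-fold higher (adjusted p = 0.00433). Blm, the Bloom helicase, rose by 2.11 (SE 0.44, adjusted p = 0.0104) and Rpa1, a single-strand binding protein, by 2.10 (SE 0.60, adjusted p = 0.0336). KO 1 was the higher KO array for 15 of the 16. The count was 12 without KO 2 and 1 without either WT array, where Blm and Rpa1 lost their calls, and Rpa1 lost its call without either AT-3 array too.

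The promoters of the replication and mitosis genes were searched for the E2F site spelled TTTGGCGC, on both strands. It was found in 7 of 45 promoters of those that rose (15.56%), in 27 of 1301 of all genes that rose (2.075%) and in 5 of 1348 of those that fell (0.3709%), against 0.5846% of all promoters. A second spelling, TTTCCCGC, was in 3 of the 45 (6.667%), in 3.305% of genes that rose and 1.706% of those that fell, against 1.236% of all promoters. Genes detected in these cells held the sites more often even where they did not pass, at 0.945% for TTTGGCGC and 2.31% for TTTCCCGC. The share among listed replication and mitosis genes that did not rise was not computed.

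Of 46 measured respiratory chain genes, 19 rose, 0 fell and 27 missed the threshold, with a median of 0.67 that was 0.70 on KO 1 and 0.56 on KO 2. Ndufc2, a subunit of complex I, had 10.61 and 10.59 on the KO arrays, against 8.64 on both WT arrays (1.96, SE 0.22, adjusted p = 0.00095). Cyc1, cytochrome c1, had 10.11 and 9.75 on the KO arrays, against 8.24 and 8.14 on the WT arrays (1.74, SE 0.23, adjusted p = 0.00168), and Cycs, cytochrome c, rose by 1.73 (SE 0.22, adjusted p = 0.00156). For 37 of the 46 the KO arrays did not overlap the WT arrays and stood higher, against 36.1% of all named genes. The count fell to 10 without KO 1, 6 without either WT array and 11 when detected probes were given equal medians, where the list's median was 0.32.

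Of 19 measured aminoacyl-tRNA synthetases, which charge tRNAs, 5 rose, 0 fell and 14 missed the threshold, with a median of 0.56 that was 0.76 on KO 1 and 0.35 on KO 2. Lars, the leucine enzyme, had 11.17 and 11.29 on the KO arrays, against 9.67 and 9.69 on the WT arrays (1.55, SE 0.23, adjusted p = 0.00289). Aars (1.2, adjusted p = 0.0155) and Eprs (at least 1.84-fold higher, adjusted p = 0.0136) lost their calls without KO 1 and without either WT array. Rises numbered 3 without KO 1, 10 without KO 2 and 1 without either WT array.

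Of 27 measured genes of the nucleolus and ribosome assembly, 2 rose, 2 fell and 23 missed the threshold, with a median of 0.11 that was 0.25 on KO 1 and 0.05 on KO 2. Npm1, nucleophosmin, rose by 1.07 (SE 0.31, adjusted p = 0.0346) and Ebna1bp2 by 0.95 (SE 0.24, adjusted p = 0.0219), while Nop2, an rRNA methyltransferase whose 3 probes split into 1 rise and 2 falls, fell by 1.23, and Ubtf, a factor of rRNA transcription, by 1.21. All 4 calls were lost without either WT array, 0 genes rose without KO 1, 5 without KO 2 and 1 without either AT-3 array, and with no scaling 8 rose.

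Of 25 measured genes of protein folding and export in the endoplasmic reticulum, 7 rose and 1 fell, with a median of 0.57 that was 0.78 on KO 1 and 0.30 on KO 2. Pdia3, a disulfide isomerase, had 11.40 and 10.43 on the KO arrays, against 9.58 and 9.30 on the WT arrays (1.48, SE 0.33, adjusted p = 0.0137), and P4hb, another, rose by 1.45 (SE 0.33, adjusted p = 0.0144). Ddit3, the stress-induced factor CHOP, had 7.05 and 8.18 on the KO arrays, against 10.61 and 10.63 on the WT arrays (-3.0, SE 0.39, adjusted p = 0.00167). Rises numbered 2 without KO 1, 12 without KO 2, 1 without WT 1, 0 without WT 2 and 4 without either AT-3 array, 3 genes fell without KO 1, and Pdia3 and P4hb lost their calls without either WT array.

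Of 10 measured heme synthesis genes, 1 rose and 1 fell, with a median of 0.06 that turned to -0.18 when detected probes were given equal medians. Alas1, the general form of the first enzyme, rose by 0.90 (adjusted p = 0.0367), and Alas2, its erythroid form, was at least 2.73-fold lower (adjusted p = 0.0331). Both calls were lost without KO 1 and without either WT array, that of Alas1 without either AT-3 array and that of Alas2 without KO 2.

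**Figure D4:**
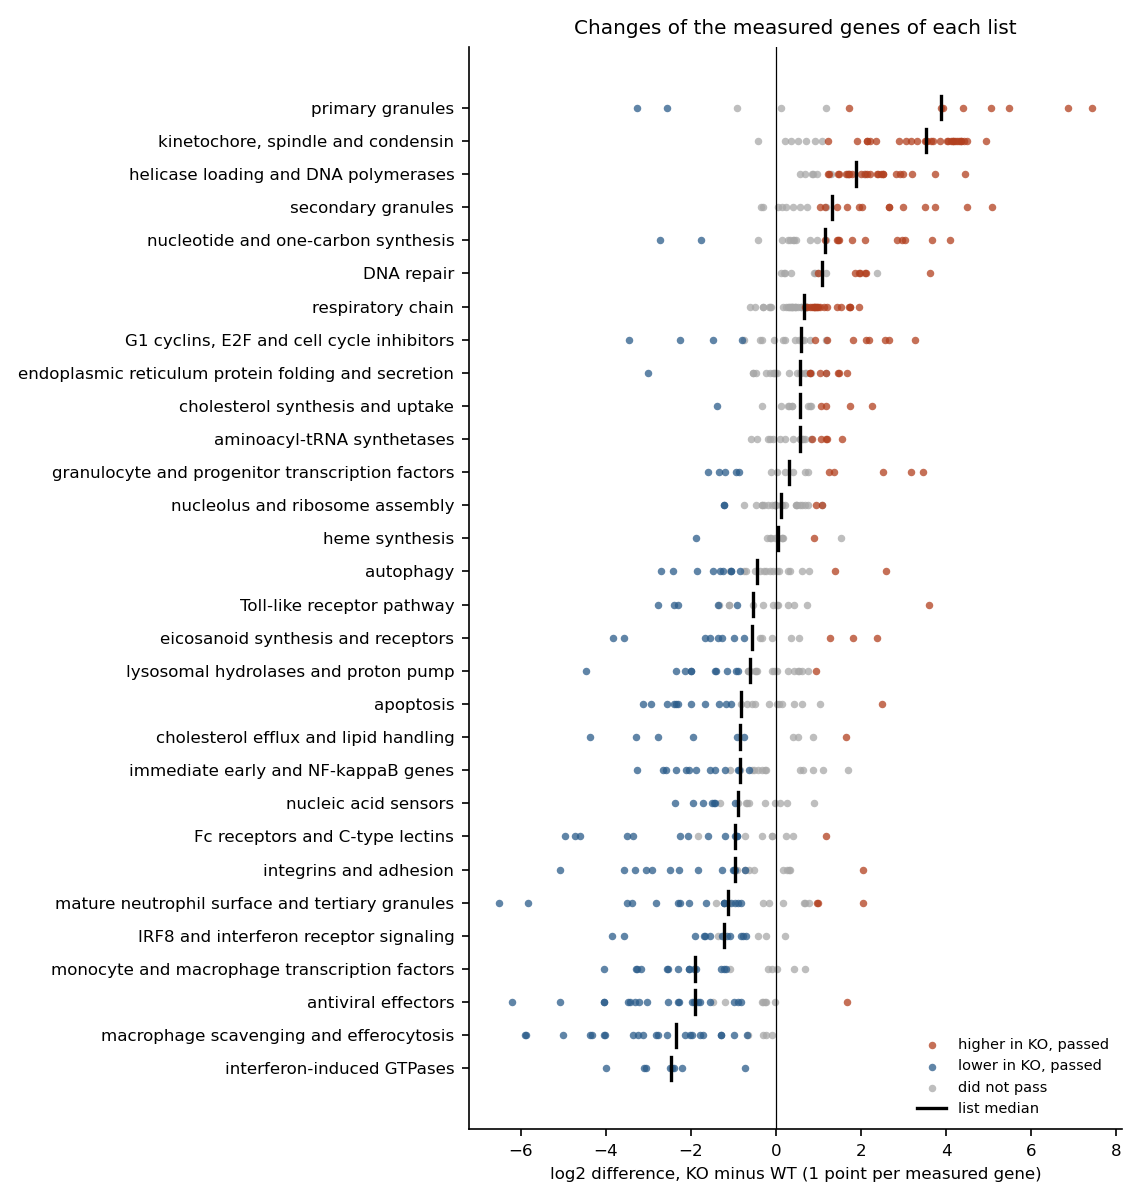
Each point is a measured gene placed by its KO minus WT difference (log2), in 30 gene lists ordered by their median (bar), with red for genes that rose, blue for genes that fell and grey for those that did not pass. The median is 3.88 for primary granule genes and 3.52 for kinetochore, spindle and condensin genes, and with detection at p under 0.01 on all 4 arrays these are 0.65 and 3.67; interferon-induced GTPases are at -2.48 under both.

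Outside the lists, genes detected on all 4 arrays with the largest rises held further cell cycle genes. Arhgef39 had 10.60 and 9.37 on the KO arrays, against 5.26 and 5.55 on the WT arrays (4.58, SE 0.39, adjusted p = 0.000428), Cdkn3, a phosphatase of cyclin-dependent kinases, rose by 4.25 (SE 0.38) and Pclaf, a partner of the PCNA clamp, by 4.34 (SE 0.60). Others had no such role. Inhba, a subunit of activin, had 10.98 and 11.16 on the KO arrays, against 6.88 and 7.40 on the WT arrays (3.93, SE 0.38, adjusted p = 0.000616). Golim4, a Golgi protein, had 10.19 and 10.06 on the KO arrays, against 6.14 and 5.94 on the WT arrays (4.09, SE 0.30, adjusted p = 0.00032). Mogat2, an acyltransferase of triglyceride synthesis, rose by 3.94 (SE 0.32, adjusted p = 0.000377). In contrast to the cell cycle genes, Inhba and Golim4 had KO arrays that nearly coincided.

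The largest falls outside the lists included Fcna, ficolin A of macrophages, with 4.98 and 6.16 on the KO arrays, against 10.83 and 10.58 on the WT arrays (-5.13, SE 0.39, adjusted p = 0.000337). Il13ra1, a receptor chain for IL-13, had 6.73 and 6.21 on the KO arrays, against 11.41 and 11.36 on the WT arrays (-4.91, SE 0.34, adjusted p = 0.000315). Cass4, an adaptor of focal adhesions, had 8.75 and 8.61 on the KO arrays, against 13.29 and 13.43 on the WT arrays (-4.68, SE 0.37, adjusted p = 0.000363). The array pairs of all 3 genes stood apart. Fgl2, a secreted fibrinogen-like protein, fell by 4.39 (SE 0.55, adjusted p = 0.00145) and Sdc3, a syndecan, by 4.58 (SE 0.37, adjusted p = 0.000379).

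Some genes were detected in 1 genotype only. Of 1432 probes detected on both KO arrays and neither WT array, 538 rose, and of 618 detected on both WT arrays and neither KO array, 374 fell. Detection in 1 genotype fixed the direction of these calls in advance, so only their number is informative. Over all 16575 probes described, 16.6% were higher and 16.7% lower in KO cells. Among named genes with the largest bounds, Igfbp4, a binder of insulin-like growth factors, had 10.40 and 8.34 on the KO arrays (at least 21.2-fold higher, adjusted p = 0.0015). Cacna1d, a calcium channel subunit, had 8.72 and 8.67 on the KO arrays (at least 13.3-fold higher, adjusted p = 0.00051). Prom1, which encodes the progenitor marker prominin-1, had 8.80 and 8.39 on the KO arrays (at least 12.4-fold higher, adjusted p = 0.000296). Its other probe differed by 0.33 and did not pass. By their brightest probes, Igfbp4, Cacna1d and Prom1 had levels between 4.65 and 4.93 on the WT arrays. In the other direction Ace, the angiotensin-converting enzyme, had 8.82 and 8.70 on the WT arrays (at least 15.2-fold lower in KO cells, adjusted p = 0.000184), and F12, coagulation factor XII, was at least 10.7-fold lower (adjusted p = 0.000472).

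Genes read by several probes allowed the differences to be compared within a gene. Of 3340 such genes, all probes rose for 336 and all fell for 313, and 28 had probes called in both directions. Across these genes the differences of the brightest and the next brightest probe correlated at 0.804, a description, since the probes share the arrays. Where the brightest probe was called, the next had the same sign for 1195 of 1300 genes, was called the same way for 809 and the other way for 10. The other probe did not pass for Glb1 (0.42), Cycs (0.57), Ptges (0.71), Ubtf (-0.82), Cd8b1 (1.10) and Map1lc3a (1.26). Of the 5 probes of Fcgr2b, 3 rose. For some genes the other probe was called the same way but changed by much less. Among these were Cass4 (-1.66), Spic (-1.51), Ms4a3 (1.87), Tyms (1.95) and Tk1 (1.48). Among genes whose probes were all called, the smallest change of any probe was largest upward for Fcnb, followed by Igfbp4 and Birc5, and high for Mlst8, a subunit of the mTOR complexes, and Hvcn1, the voltage-gated proton channel of phagocytes. Mlst8 had 12.23 and 12.25 on the KO arrays, against 8.27 and 8.47 on the WT arrays (3.87, SE 0.28, adjusted p = 0.00032). Hvcn1 had 12.15 and 12.07 on the KO arrays, against 8.35 and 8.62 on the WT arrays (3.63, SE 0.35, adjusted p = 0.000599). All 3 probes of Mlst8 and both of Hvcn1 rose. Downward, both probes of Gngt2, a G protein gamma subunit (-4.51, SE 0.40), of Metrnl, a secreted meteorin-like protein (-4.59, SE 0.23), and of Fcgrt, the neonatal Fc receptor (-4.11, SE 0.26), fell.

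**Figure D5:**
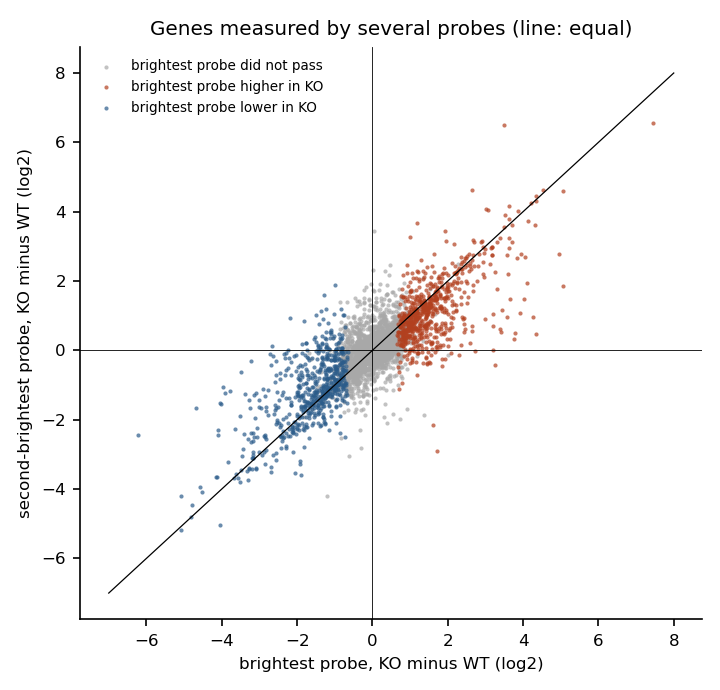
Each point is a gene with several probes: the KO minus WT difference (log2) of its brightest probe (horizontal) against that of its next brightest probe (vertical), with red and blue for genes whose brightest probe rose or fell and grey for the others. Most points follow the diagonal of equal change (correlation 0.804 across 3340 genes).

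The called genes whose KO arrays were farthest apart were picked by that gap. Elane, Prtn3, Mpo and Nkg7 among them belong to the primary granule list above, so their gap is not a second result. Elane, Prtn3, Mpo, Nkg7 and Ms4a3 were highest on KO 1 relative to KO 2, with Prtn3 at 13.21 on KO 1 and 9.33 on KO 2, against 6.94 and 6.83 on the WT arrays. Higher on KO 2 were Acod1, the enzyme that makes itaconate, Arhgap24, Il10ra, a chain of the IL-10 receptor, Klf4 and Chil5, a chitinase-like protein. Acod1 had 6.09 and 8.44 on the KO arrays, against 10.07 and 10.31 on the WT arrays, and Chil5 had 8.88 and 10.83 on the KO arrays, against 6.99 and 7.61 on the WT arrays. Acod1, Il10ra and Klf4 lost their calls without KO 1, and all but Elane, Mpo and Ms4a3 lost them without either WT array.

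Markers of other cell types were read in the same arrays, because a sorted fraction can hold other cells. Of 6 erythroid markers measured, 0 rose and 3 fell, and their summed signal was 390 and 599 on the KO arrays, against 12465 and 8835 on the WT arrays. Of these markers 4 were not detected on both KO arrays and 2 not on both WT arrays. Hba-a1, an alpha globin gene, had 7.12 and 7.73 on the KO arrays, against 12.40 and 12.04 on the WT arrays (-4.79, SE 0.28, adjusted p = 0.000294). Klf1, Gata1 and Rhag, which define the lineage, were among 7 of 13 markers not detected on 2 of the 4 arrays. Of 12 dendritic cell and class II markers, 0 rose and 6 fell, with summed signals of 2515 and 4494 on the KO arrays, against 8200 and 11721 on the WT arrays. Batf3, a factor of conventional dendritic cells, was at least 4.89-fold lower (adjusted p = 0.000386), while Flt3, Zbtb46 and Xcr1 were not detected on 2 of the arrays. Without KO 1 or WT 2, 2 of the dendritic cell markers fell, and without WT 1, 3 did. These lists moved with the macrophage and interferon genes, and their part in those falls was not tested.

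Marker lists with rises and no falls were those of T cells, early progenitors and B cells, and that of basophils and mast cells through Kit alone. However, 4 of the 6 T cell markers and 4 of the 5 progenitor markers were not detected on both WT arrays. Those markers entered through the KO arrays, so the filter favoured rises in both lists. Of 6 T cell markers, 4 rose and 0 fell, with summed signals of 3032 and 2918 on the KO arrays, against 1425 and 1390 on the WT arrays, and Cd4, Cd8a and Cd5 were not detected on 2 of the arrays. Cd8b1 had 11.39 and 10.97 on the KO arrays, against 10.11 and 9.99 on the WT arrays (1.13, SE 0.23, adjusted p = 0.0101), and it carried most of the summed signal on every array. Cd2 (at least 1.76-fold higher, adjusted p = 0.0448) and Thy1 (at least 1.62-fold, adjusted p = 0.0238) lost their calls without KO 2, Cd2 also without either AT-3 array, and these and Cd8b1 lost theirs without either WT array, where 0 of the 4 calls remained. Of 5 progenitor markers, 3 rose and 0 fell, with summed signals of 1620 and 1275 on the KO arrays, against 206 and 279 on the WT arrays. Kit, the stem cell factor receptor, had 10.06 and 9.64 on the KO arrays, against 6.45 and 7.33 on the WT arrays (2.96, SE 0.77, adjusted p = 0.0248), a call lost on leaving out any KO or WT array, and 1 progenitor marker rose in each of these cases. Cd34, Meis1 and Gata2, which define early progenitors, were not detected on 2 of the arrays. The part of these markers in the rise of the granule and cell cycle genes was not tested.

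The B cell list and the remaining lists were small or mixed. Of 8 B cell markers, 2 rose and 0 fell, with summed signals of 728 and 1059 on the KO arrays, against 376 and 521 on the WT arrays, while the 6 platelet-lineage markers gave 2 rises and 3 falls, with 251 and 349 on the KO arrays, against 416 and 423 on the WT arrays. Gp9, a platelet glycoprotein, was at least 2.91-fold higher (adjusted p = 0.00316) and Vwf, von Willebrand factor, at least 2.53-fold lower (adjusted p = 0.00155), whereas Pf4 and Ppbp were not detected on 2 of the arrays. B cell markers rose in 4 cases without KO 1, 1 without KO 2, 0 without WT 1 and 1 without WT 2 or either AT-3 array, and 1 platelet marker fell without KO 1 or either WT array. Txndc5, detected on 1 of the 2 KO arrays, fell among 3 plasma cell markers, a call lost without KO 1 or either WT array. Neither of 2 natural killer cell markers passed, with summed signals of 192 and 300 on the KO arrays, against 342 and 464 on the WT arrays. Ccr3 fell as the only eosinophil marker measured, and Stab2, a scavenger receptor of sinusoidal endothelium, fell among 3 stromal markers (at least 2.86-fold, adjusted p = 0.0048). Summed signals were 119 and 274 for plasma cells, 24 and 22 for eosinophils and 79 and 117 for stromal cells on the KO arrays, against 151 and 198, 87 and 76, and 132 and 139 on the WT arrays. Kit was also the only 1 of 8 basophil and mast cell markers measured, and Mcpt8 and Cpa3 were not detected on 2 of the arrays.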

How the data were processed

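Total RNA of sorted cells (RIN above 7 per the labels) was labelled and hybridised to Illumina mouse bead arrays. The authors' deposited table holds, per probe and array, a summarised bead intensity, not normalized, and a detection p-value, both made with GenomeStudio per the submitters' processing notes. The series table deposited by the authors holds log2 values, which equalled log2 of the quantile-normalized intensities within 5e-09 and were used as an alternative. No depth applies to arrays, and their number limits the precision.

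From the intensities, background was corrected by normexp with the detection p-values (neqc, offset 16), followed by quantile normalization and log2, in limma 3.58.1 under R 4.3.3. Probes detected at p under 0.05 on at least 2 of 6 arrays were fitted (lmFit, 1 mean per group, eBayes; 3 residual and 4.53 prior degrees of freedom), and p-values were adjusted by Benjamini-Hochberg. The median SE of a difference was 0.262. Each adjusted p printed comes from this limma fit unless its sentence names another setting, which was then refitted the same way, and the fit was tested on simulated data.

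Symbols were updated to RefSeq through Entrez IDs for 34807 probes, 18 had several symbols and stayed unnamed, and 10378 had none. Genes were named by rule: Irf8; in each list up to 3 called genes with the largest rise and fall; genes with all probes called alike; the largest changes outside the lists; the largest bounds; and the largest gaps between the KO arrays. The members, lists and tests were chosen with earlier results of these data known. Promoters came from RefSeq (GRCm38.p6). Replicate numbers did not pair the samples: deviations of arrays numbered alike correlated at 0.0841 between KO and WT. Alternatives covered background, scaling, filters, thresholds, the block and leaving out each array.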

Additional observations from a re-analysis of the deposited data

How the results depend on the processing

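Of 185 named genes, 129 kept their direction and call under every alternative that gave them a value, and 0 reversed. The 5517 called probes became 2712 (1256 higher, 1456 lower) at an adjusted p under 0.01, a stricter threshold by construction. With no scaling between arrays 4465 of the described probes were higher, and the cause was not tested. Leaving out 1 array gave 2111 to 5837 called probes, 977 to 2907 of them higher and 1134 to 2885 lower; WT arrays mattered most, with 2464 calls without WT 1 and 2111 without WT 2, fits with fewer samples. Irf8 differed by -0.635 without background correction and by -0.635 in the authors' log2 values, where its call was lost, and by -1.875 to -1.390 on leaving out 1 array, where it was lost without WT 1. With the replicate number as a block 5239 probes were called, and 3 named genes lost their calls; the numbers are shared only as numbers. Strict detection left 56 named genes without a value. Probes near background limit what can be measured: genes not detected in a genotype have only a bound. Of the medians of 30 gene lists, 17 shrank by more than 1.5 times without background correction and in the authors' log2 values, 7 with an offset of 50, 14 without KO 1 and 1 without KO 2, where 5 grew; with no scaling 5 grew and 1 shrank, and strict detection gave 3 of each. When detected probes were given equal medians, that of heme synthesis turned in sign.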

Other observations

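Genes next to Irf8 on chromosome 8, in RefSeq order, were read because a targeted allele lies among them. Of 10 neighbours measured, 5 were called by limma, 4 of them lower in KO cells, against 35.4% of all named genes called in either direction. Fbxo31, a subunit of a ubiquitin ligase, had 8.68 and 8.69 on the KO arrays, against 11.53 and 11.55 on the WT arrays (-2.85, SE 0.34, adjusted p = 0.00125). Gse1 had 8.14 and 8.35 on the KO arrays, against 9.95 and 9.78 on the WT arrays (-1.62, adjusted p = 0.0187). Zcchc14 (-1.54, adjusted p = 0.00485) and Map1lc3b, a ubiquitin-like protein of autophagosomes (-1.06, adjusted p = 0.0190), were lower too, and Mthfsd was higher (0.75, adjusted p = 0.0352). Mthfsd had 4.64 and 4.73 on the WT arrays, below the lowest level of a detected probe there (4.97 and 4.95). Zcchc14 had 4.74 on KO 1, below that array's lowest detected level of 4.79. Both differences therefore rest at least partly on levels not above background. Cox4i1, Emc8, Gins2, Zdhhc7 and Klhdc4 did not pass. The neighbours were chosen by position and not by their values.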
